A study of Mus musculus with 9 samples.

Results

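The genes described here make sterols and fatty acids: 32 genes of the SREBP factors and their regulators, of the cholesterol pathway and of fatty acid synthesis, chosen by name from the 35771 rows of an RNA-seq table of mouse embryonic stem cells (ESCs). They comprise 4 regulators (Srebf1, Srebf2, Scap and Insig1), the sterol carrier Stard4, 19 enzymes of the mevalonate and sterol pathway, and 8 enzymes of fatty acid synthesis and desaturation. All 32 were found and all 32 passed the filter on low counts. The cells were of mixed background, homozygous for iMOS T1-Myc and carried RERT in all 3 groups. The first group was sorted from mosaic cultures induced with 20 µM 4-hydroxytamoxifen for 24 h and held the cells with 2 extra copies of Myc and EYFP (n = 3), collected 24 h after the drug was removed. The second group was the cells sorted from the same kind of induced culture as having no extra copy of Myc or EYFP (n = 3). The third was ESCs of the same genotype left uninduced, also sorted (n = 3); the treatment field repeats the drug for them too, while their titles and the study design call them uninduced. The design calls the 3 samples of a group biological replicas but does not say that they came from separate cultures, so the p-values below measure the spread between these samples, which may be technical. The sources used here name neither the promoter of the extra copies nor whether the line is 1 clone.

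Sterol synthesis starts from acetyl-CoA, which is built up through mevalonate and isoprenoid diphosphates to squalene and lanosterol and then trimmed to cholesterol. Fatty acid synthesis uses the same acetyl-CoA, carboxylates it to malonyl-CoA and assembles palmitate, which is elongated and desaturated. SREBP transcription factors, held in the endoplasmic reticulum by SCAP and INSIG proteins when sterols are plentiful, control many genes of both branches. Myc is known for raising growth and biosynthesis in many cell types.

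The deposited values were expected counts per gene, and totals ran from 4165286 to 8872303 rounded counts per library. Levels are given in CPM, counts scaled to a common library total with TMM factors. Myc itself stood at 138, 147 and 141 CPM with 2 extra copies, 31.8, 30.6 and 32.4 CPM with no extra copy, and 11.5, 14.1 and 14.2 CPM in uninduced cells, so the 3 groups did not overlap. ESC markers, among them Pou5f1 and Nanog, summed to 3569 to 3774 CPM with 2 extra copies, 3898 to 3982 CPM in cells without an extra copy and 3735 to 3795 CPM in uninduced cells. Fibroblast markers summed to 124.4 to 133 CPM with 2 extra copies, 198.9 to 223.2 CPM with no extra copy and 80.7 to 85.95 CPM in uninduced cells. Of these 9 markers 7 were tested, while Lum and Postn stayed under 1 CPM in every library. In each induced population 5 of the 7 were called higher than in uninduced cells, or 71.4%. Of all genes tested, 12.8% were higher than in uninduced cells for 2 extra copies and 7.10% for cells without an extra copy. Trophectoderm markers, of which Krt8 and Krt18 were called in all 3 comparisons and Eomes was called lower with 2 extra copies against none (1.65 against 3.3 CPM), summed to 186 to 202 CPM, 211.8 to 237.5 CPM and 147.2 to 159.9 CPM in the same order, and extraembryonic endoderm markers to 10.14 to 15.6 CPM, 17.68 to 20.96 CPM and 16.01 to 17.01 CPM. Between the induced populations 4 of the 7 tested fibroblast markers were called lower with 2 extra copies, or 57.1% beside 7.70% of all genes. The part of these markers in the results below was not tested. Replicate 1 with 2 extra copies stood apart from the other libraries of its group, with a chi-square per degree of freedom of 2.67 and 3.03 against 1.37 to 1.82 for all other pairs of replicates. The slope of log2 level was taken over a doubling of gene length, with all annotated exons of a gene merged. This length is not that of the principal transcript used below. The slope was 0.0113, -0.0473 and -0.0526 with 2 extra copies, and -0.00566, -0.00422 and 0.00775 in cells without an extra copy. In uninduced cells it was 0.0504, 0.0216 and 0.0188. A fit with that trend removed was therefore run for the changes of the 32 genes and for the counts of genes called.

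Over the 32 genes, 13 fell and 3 rose in cells with 2 extra copies against uninduced cells, or 40.6% and 9.38%. Among all 13424 genes tested 12.1% were lower and 12.8% higher in that comparison. A gene was called when edgeR's quasi-likelihood test gave an adjusted p below 0.05 over all genes tested. Against cells with no extra copy, 6 of the 32 were lower and 1 higher with 2 extra copies, beside 7.70% lower and 8.30% higher of all genes. In cells with no extra copy 4 were lower and 1 higher than in uninduced cells, beside 6.39% and 7.10% of all genes. In these comparisons the median log2 change of the 32 genes was -0.14, -0.07 and -0.03, and that of all genes -0.01, -0.01 and 0.00. All of the called changes were small, between 1.10-fold and 1.34-fold. In sorted bulk RNA, fewer cells that express a gene and less of its RNA per cell cannot be told apart. Both comparisons with uninduced cells use the same 3 uninduced libraries. When TMM was replaced by library size, 36.3% of the genes called between 2 extra copies and none were higher, against 51.9%, and with the length trend removed 70.7% were. For 2 extra copies against uninduced cells the length trend moved that share to 63.1%, against 51.4%.

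Per kilobase of the principal transcript, the scale on which different genes can be compared, Fdps, the farnesyl diphosphate synthase, was the highest of the 32. It led in all 3 groups, and its level was 113 CPM per kb with no extra copy and 123 CPM per kb in uninduced cells. Acly, which makes cytosolic acetyl-CoA from citrate for both branches, came next at 93.1, 92.9 and 90.8 CPM per kb. The lowest were Sc5d, the lathosterol oxidase, at 3.64, 3.97 and 3.76 CPM per kb and Hsd17b7, a sterol 3-keto reductase, at 3.83, 4.48 and 4.06 CPM per kb. Of the 2 SREBP genes, Srebf2, whose product acts mainly on sterol genes, stood at 51.7, 55.5 and 52.3 CPM per kb and Srebf1, which acts more on fatty acid genes, at 16.6, 18.6 and 18.4. Scd2 was at 48.2, 55.2 and 60.7 CPM per kb, far above its paralogue Scd1 at 7.12, 9.18 and 9.54. The spread of levels between genes was far wider than any change of a gene between groups.

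Of the 4 regulators, Insig1 and Srebf1 fell and Scap rose with 2 extra copies against uninduced cells. Insig1, which retains the SCAP and SREBP complex in the endoplasmic reticulum and is itself an SREBP target, had 68.9, 72.5 and 64.6 CPM with 2 extra copies, 75.5, 74.4 and 73.6 CPM with no extra copy, and 85.8, 81.3 and 81.1 CPM in uninduced cells. All libraries with 2 extra copies lay below all with no extra copy, and these below all uninduced ones. Insig1 fell 1.21-fold with 2 extra copies against uninduced cells (log2 -0.27, SE 0.0576, adjusted p = 0.000553), and its changes in the other comparisons were not called (log2 -0.12 and -0.15, adjusted p = 0.172 and 0.0757). Scap, the escort protein that carries SREBP to the Golgi, had 66.4, 67.9 and 75.8 CPM with 2 extra copies, 74.8, 71.6 and 68.8 CPM with no extra copy, and 65.2, 59.9 and 61.3 CPM in uninduced cells. Both induced populations lay above the uninduced libraries and overlapped each other. Scap rose 1.13-fold with 2 extra copies (log2 0.18, SE 0.0634, adjusted p = 0.0356) and 1.16-fold with no extra copy (log2 0.21, SE 0.063, adjusted p = 0.0206) against uninduced cells.

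Srebf1 had 72.4, 70.1 and 71.1 CPM with 2 extra copies, 77, 83.3 and 79.5 CPM with no extra copy, and 79.9, 78.8 and 78.7 CPM in uninduced cells. Its libraries with 2 extra copies lay below all 6 others. It fell 1.13-fold against no extra copy (adjusted p = 0.0336) and 1.11-fold against uninduced cells (adjusted p = 0.0438). Srebf2 was at 262, 271 and 254 CPM, 267, 284 and 295 CPM, and 268, 260 and 269 CPM in the same order, with overlapping groups, and was called neither between the induced populations nor for 2 extra copies or no extra copy against uninduced cells (in that order adjusted p = 0.0884, 0.775 and 0.191; log2 -0.10, -0.02 and 0.08). The carrier Stard4, which moves cholesterol between membranes, had 23.7, 24.6 and 23.3 CPM with 2 extra copies, 25.3, 27.4 and 31.7 CPM with no extra copy, and 32.2, 28 and 30.3 CPM in uninduced cells. It fell 1.26-fold with 2 extra copies against uninduced cells (log2 -0.34, SE 0.0953, adjusted p = 0.00829), while its libraries with no extra copy overlapped the uninduced ones.

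Of these calls only that of Insig1 held under all 20 alternatives. The Srebf1 calls were lost without any 1 of the 3 libraries with 2 extra copies (adjusted p = 0.0543, 0.101 and 0.113 against no extra copy; 0.0669, 0.12 and 0.122 against uninduced cells), without no extra copy replicate 2 (0.219, the first comparison) or replicate 3 (0.0627 and 0.0518), without any 1 uninduced library (0.113, 0.0902 and 0.0771, the second comparison), with DESeq2 (0.243 and 0.254) and with the length trend removed (0.119 and 0.156). The Scap calls were lost with DESeq2 (0.152 for 2 extra copies, 0.147 for no extra copy), without uninduced replicate 2 (0.149 and 0.116) or 3 (0.0902 and 0.066), that with 2 extra copies also without replicate 3 of that group (0.256), and that with no extra copy also without its replicate 1 (0.106) or 2 (0.0678). The Stard4 call was lost with DESeq2 (0.0799) and without uninduced replicate 1 (0.0575). A transcript of Scap matches another annotated gene over 71.1% of its length, so its reads may be shared.

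**Figure D1:**
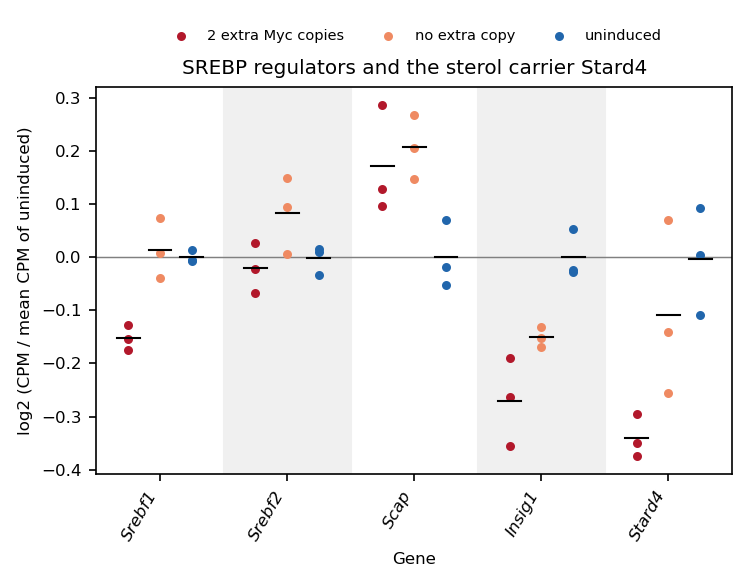
Level of the 4 regulators and of Stard4 in each of the 9 libraries, as log2 of CPM over the mean CPM of the uninduced libraries (y axis). Points are libraries, black bars the mean of the 3 log2 values. Insig1 steps down from uninduced to 2 extra copies, and Scap is above the uninduced libraries in both induced populations.

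Of the 19 sterol enzymes, 7 fell in cells with 2 extra copies against uninduced cells (Hmgcs1, Fdps, Ggps1, Sqle, Lss, Cyp51 and Msmo1) and 0 rose, or 36.8% lower beside 12.1% lower and 12.8% higher of all genes. The fitted change was below 0 for 15 of the 19, with a median log2 change of -0.15, and -0.09 with the length trend removed. At an unadjusted p below 0.05, 1 was higher (Idi1), and DESeq2 called 0 higher and 2 lower. Summed over the 19 enzymes, the level was 1255, 1265 and 1271 CPM with 2 extra copies, 1322, 1290 and 1311 CPM with no extra copy, and 1394, 1371 and 1400 CPM in uninduced cells. The 3 groups of sums did not overlap, and cells with no extra copy lay between the others.

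The largest fall was in Msmo1, the sterol C4-methyl oxidase, with 64, 65.4 and 65.3 CPM with 2 extra copies, 73.8, 72.2 and 68.1 CPM with no extra copy, and 83.6, 81.9 and 85.6 CPM in uninduced cells. The groups were fully separated. Msmo1 was 1.29-fold lower with 2 extra copies (log2 -0.37, SE 0.0565, adjusted p = 9.13e-06) and 1.17-fold lower with no extra copy (log2 -0.22, SE 0.0554, adjusted p = 0.00518) than in uninduced cells. Fdps, at the branch point to sterols and prenylated products, had 132, 143 and 139 CPM with 2 extra copies, 151, 157 and 160 CPM with no extra copy, and 164, 170 and 174 CPM in uninduced cells, again with no overlap. It fell 1.22-fold against uninduced cells (log2 -0.29, SE 0.0448, adjusted p = 7.71e-06) and 1.13-fold against no extra copy (log2 -0.18, SE 0.046, adjusted p = 0.00731). The change of Msmo1 with 2 extra copies against none was not called (log2 -0.14, adjusted p = 0.0988). Nor was that of Fdps with no extra copy against uninduced cells (log2 -0.12, adjusted p = 0.0752). The falls of Msmo1 and Fdps with 2 extra copies against uninduced cells held under all 20 alternatives.

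Hmgcs1, the synthase that makes HMG-CoA, had 231, 222 and 223 CPM with 2 extra copies, 226, 221 and 237 CPM with no extra copy, and 255, 249 and 246 CPM in uninduced cells. Both induced populations lay below all uninduced libraries and overlapped each other. It fell 1.11-fold with 2 extra copies (adjusted p = 0.00559) and 1.10-fold with no extra copy (adjusted p = 0.0168). Cyp51, the lanosterol 14-demethylase, had 64.5, 60.3 and 60.7 CPM with 2 extra copies, 65.3, 60.5 and 63.3 CPM with no extra copy, and 70.3, 72 and 71 CPM in uninduced cells. The pattern was that of Hmgcs1, with falls of 1.15-fold (adjusted p = 0.012) and 1.13-fold (adjusted p = 0.0396). For both genes the induced populations were close to each other (log2 -0.01 and -0.02, SE 0.0407 and 0.0625, for 2 extra copies against none).

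Lss, which cyclises squalene epoxide to lanosterol, had 70.3, 74.4 and 67.1 CPM with 2 extra copies, 71.7, 75.9 and 67.2 CPM with no extra copy, and 88, 76.4 and 80.4 CPM in uninduced cells. Sqle, the squalene epoxidase ahead of it, had 112, 128 and 118 CPM, 130, 121 and 126 CPM, and 130, 129 and 139 CPM in that order of groups. Every library with 2 extra copies was below every uninduced one for both genes, narrowly for Sqle. They fell 1.16-fold (adjusted p = 0.0124) and 1.11-fold (adjusted p = 0.0261) with 2 extra copies, and their changes with no extra copy were not called (log2 -0.17 and -0.08, adjusted p = 0.0627 and 0.316). Ggps1, which makes geranylgeranyl diphosphate, fell 1.23-fold with 2 extra copies against uninduced cells (22.3 against 27.3 CPM, adjusted p = 0.0459).

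Between 2 extra copies and none, 1 sterol enzyme rose (Idi1) and 2 fell (Mvd and Fdps). These are 5.26% and 10.5% of the 19, near the 8.30% higher and 7.70% lower of all genes. DESeq2 called 0 of the 19, with 1 higher and 2 lower at its unadjusted p below 0.05. Mvd, which decarboxylates mevalonate diphosphate, had 33.8, 31.3 and 32.7 CPM with 2 extra copies, 43.3, 38.4 and 41 CPM with no extra copy, and 34.9, 38.1 and 37.7 CPM in uninduced cells. It was lowest with 2 extra copies and highest with none, without overlap, and fell 1.25-fold with 2 extra copies against none (log2 -0.32, SE 0.0817, adjusted p = 0.00626). Against uninduced cells Mvd was not called with 2 extra copies (adjusted p = 0.108) or with none (adjusted p = 0.261). Idi1, the next enzyme of the pathway, which isomerises isopentenyl diphosphate, had 116, 114 and 117 CPM with 2 extra copies, 103, 101 and 103 CPM with no extra copy, and 113, 111 and 96.2 CPM in uninduced cells. It was the 1 member to rise in this comparison, 1.13-fold (log2 0.18, SE 0.0544, adjusted p = 0.0233), and its libraries with 2 extra copies were above all others. Its change with 2 extra copies against uninduced cells was not called (log2 0.11, adjusted p = 0.121).

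The other 10 sterol enzymes, Acat2, Mvk, Pmvk, Fdft1, Tm7sf2, Nsdhl, Hsd17b7, Ebp, Sc5d and Dhcr7, were called in no comparison. Their fitted log2 changes ran from -0.26 to 0.05 with 2 extra copies and from -0.32 to 0.24 with no extra copy against uninduced cells. The extremes were Pmvk, the phosphomevalonate kinase, at log2 0.24 (SE 0.0926, adjusted p = 0.0831) and Tm7sf2, a sterol C14 reductase, at log2 -0.32 (SE 0.135, adjusted p = 0.12), both with no extra copy. Several of these genes had low levels and wide errors, so a missed threshold does not show that they did not differ. In the comparison of no extra copy with uninduced cells 3 of 19 sterol enzymes fell (Hmgcs1, Cyp51 and Msmo1) and 0 rose. This is 15.8% lower, beside 6.39% lower and 7.10% higher of all genes. At an unadjusted p below 0.05, 1 was higher. DESeq2 called 0 in either direction there, with 0 higher and 4 lower at its unadjusted p below 0.05.

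Some of these calls rested on few libraries. Against uninduced cells with 2 extra copies, Lss lost its call without uninduced replicate 1 (adjusted p = 0.121), without replicate 3 with 2 extra copies (0.106) and with the length trend removed (0.293); Sqle without uninduced replicate 3 (0.135), without replicate 1 or 3 with 2 extra copies (0.173 and 0.106) and with the length trend removed (0.112). Cyp51 lost it without replicate 2 or 3 with 2 extra copies (0.0501 and 0.0624), and Ggps1 in 13 of 20 alternatives (adjusted p up to 0.207), 7 of them leaving out 1 library. Without replicate 3 with 2 extra copies 3 sterol enzymes were called in this comparison, and 4 with the length trend removed. With no extra copy, Hmgcs1 lost its call without uninduced replicate 1 or 2 (0.0826 and 0.0568) or no extra copy replicate 1 or 2 (0.064 and 0.144), and Cyp51 without any 1 uninduced library (0.0773, 0.126 and 0.0834) or no extra copy replicate 2 or 3 (0.236 and 0.0725). Without uninduced replicate 1, 1 sterol enzyme was called in that comparison, and 5 without replicate 1 with 2 extra copies. Between 2 extra copies and none, Fdps lost its call without replicate 1 with 2 extra copies (0.0523), and Idi1 without replicate 3 with 2 extra copies (0.0644) or no extra copy replicate 1 or 2 (0.0545 and 0.108), and with library size alone (0.081). DESeq2 ended every sterol enzyme call other than those of Msmo1 and Fdps with 2 extra copies against uninduced cells (adjusted p from 0.0502 to 0.252). Reads of Fdps, Idi1, Ggps1, Acat2 and Tm7sf2 can be shared with close copies, pseudogenes among them, or a neighbouring transcript, and 18.3% of the exonic bases of Fdft1 overlap Ctsb on the other strand, so these values are less certain.

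**Figure D2:**
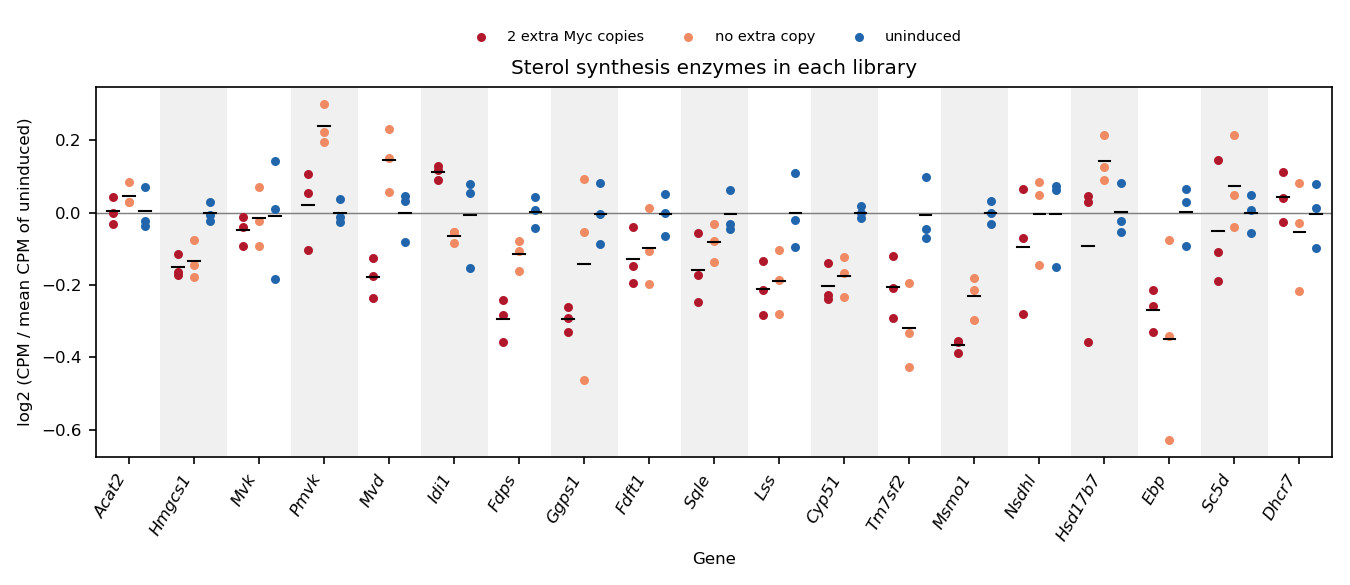
Level of the 19 sterol enzymes in each of the 9 libraries, in pathway order, as log2 of CPM over the mean CPM of the uninduced libraries (y axis). Points are libraries and black bars the mean of the 3 log2 values. Fdps and Msmo1 are lowest with 2 extra copies and intermediate with no extra copy, Hmgcs1 and Cyp51 are about equally low in both, and Idi1 is highest with 2 extra copies.

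Of the 8 fatty acid enzymes, Acaca and Fasn, which build the chain, rose with 2 extra copies against uninduced cells, and the desaturases Scd1, Scd2 and Fads2 fell, or 25.0% higher and 37.5% lower beside 12.8% and 12.1% of all genes. Acly, Elovl6 and the desaturase Fads1 were not called. Summed over the 4 desaturases, which include Fads1, the level was 400.7, 399 and 378.7 CPM with 2 extra copies, 463.2, 452.2 and 447.9 CPM with no extra copy, and 502.2, 463.9 and 493.1 CPM in uninduced cells. Summed over Acly, Acaca, Fasn and Elovl6, it was 1246, 1198 and 1199 CPM, 1148, 1188 and 1217 CPM, and 1146, 1111 and 1146 CPM in that order. The desaturase sums did not overlap between any groups, but no extra copy and uninduced cells were apart only narrowly (463.2 against 463.9 CPM). In that comparison Scd2, the largest part of the sum, was without overlap, while Scd1, Fads1 and Fads2 each overlapped. The sums of the building enzymes with 2 extra copies lay above all uninduced ones but overlapped those with no extra copy. These sums were chosen after the values were known and were given no test.

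Scd2, the main stearoyl-CoA desaturase of these cells, had 264, 271 and 254 CPM with 2 extra copies, 308, 300 and 296 CPM with no extra copy, and 347, 313 and 333 CPM in uninduced cells. It was the 1 member called in all 3 comparisons, and no groups overlapped. Scd2 fell 1.26-fold with 2 extra copies against uninduced cells (log2 -0.33, SE 0.0412, adjusted p = 2.2e-07), 1.15-fold against no extra copy (log2 -0.20, SE 0.0419, adjusted p = 0.001), and 1.10-fold with no extra copy against uninduced cells (log2 -0.13, SE 0.0408, adjusted p = 0.0239). Scd1, the paralogue that dominates in liver and fat, had 34.5, 33.1 and 35.6 CPM with 2 extra copies, 50.3, 43.7 and 39.1 CPM with no extra copy, and 47.8, 43.6 and 46.9 CPM in uninduced cells. It was low with 2 extra copies alone, by 1.34-fold against uninduced cells (log2 -0.42, SE 0.082, adjusted p = 0.000241) and 1.29-fold against no extra copy (log2 -0.37, SE 0.0844, adjusted p = 0.00199). A transcript of Scd1 matched Scd2 at 95.6% identity over 82.7% of its length, so some reads may have been divided between them.

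Fads2, the delta-6 desaturase of polyunsaturated fatty acids, had 35.1, 35.6 and 29.3 CPM with 2 extra copies, 42.3, 45.2 and 40.7 CPM with no extra copy, and 42.7, 39.1 and 41.9 CPM in uninduced cells. As for Scd1, the libraries with 2 extra copies were below all 6 others. It fell 1.30-fold against no extra copy (log2 -0.38, SE 0.0843, adjusted p = 0.00152) and 1.24-fold against uninduced cells (log2 -0.31, SE 0.083, adjusted p = 0.0048). Fads1, the delta-5 desaturase near it on chromosome 19, had 67.1, 58.9 and 60.3 CPM, 63.1, 63.4 and 71.7 CPM, and 65.1, 68.2 and 71.1 CPM, with overlapping groups, and was not called (log2 -0.13, SE 0.0656, adjusted p = 0.136 against uninduced cells). Scd1, Scd2 and Fads2 also lie on chromosome 19.

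Fasn, the fatty acid synthase, had 511, 473 and 484 CPM with 2 extra copies, 449, 481 and 500 CPM with no extra copy, and 450, 431 and 452 CPM in uninduced cells. Acaca, the acetyl-CoA carboxylase, had 124, 111 and 108 CPM, 94.7, 101 and 111 CPM, and 104, 89 and 98.4 CPM in that order. For both genes the libraries with 2 extra copies lay above the uninduced ones and overlapped those with no extra copy. Fasn rose 1.10-fold (log2 0.14, SE 0.0397, adjusted p = 0.00898) and Acaca 1.18-fold (log2 0.23, SE 0.0647, adjusted p = 0.0102) with 2 extra copies against uninduced cells. These are the longest transcripts of the set, and with the length trend removed their changes were log2 0.26 and 0.43 against uninduced cells, and 0.13 and 0.30 against no extra copy (adjusted p = 0.0123 and 8.07e-05), where they were not called with TMM alone (log2 0.04 and 0.17, adjusted p = 0.568 and 0.0946).

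Acly had 399, 415 and 413 CPM with 2 extra copies, 411, 410 and 403 CPM with no extra copy, and 397, 397 and 403 CPM in uninduced cells. Its changes were log2 0.00, 0.04 and 0.03 (SE 0.0358, 0.0355 and 0.0355), so it stayed within a few percent across the groups. Elovl6, which elongates palmitate to stearate, had 213, 199 and 194 CPM, 193, 197 and 202 CPM, and 195, 194 and 193 CPM, and was not called (log2 0.03, 0.06 and 0.02). Over the 8 fatty acid enzymes, 2 rose and 3 fell with 2 extra copies against uninduced cells, 3 fell and 0 rose against no extra copy, and Scd2 alone fell with no extra copy against uninduced cells. The falls against no extra copy were 37.5% of the list, beside 7.70% lower and 8.30% higher of all genes. That of Scd2 was 12.5%, beside 6.39% lower and 7.10% higher of all genes. In each of the comparisons with 0 called higher, 1 was higher at an unadjusted p below 0.05, and DESeq2 called 0 higher.

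The Scd1 and Scd2 calls with 2 extra copies and the Fads2 call against no extra copy held under all 20 alternatives. The Acaca and Fasn calls were lost without uninduced replicate 2 (adjusted p = 0.0713 and 0.0738), which left 3 fatty acid enzymes called. Acaca and Elovl6 have close pseudogene copies, so their reads may be shared. The Fads2 call against uninduced cells was lost with DESeq2 (0.0554) and without replicate 3 with 2 extra copies (0.0922), and the Scd2 call with no extra copy was lost with DESeq2 (0.1), without uninduced replicate 1 (0.171) or 3 (0.076) and without no extra copy replicate 2 (0.0937) or 3 (0.0897).

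**Figure D3:**
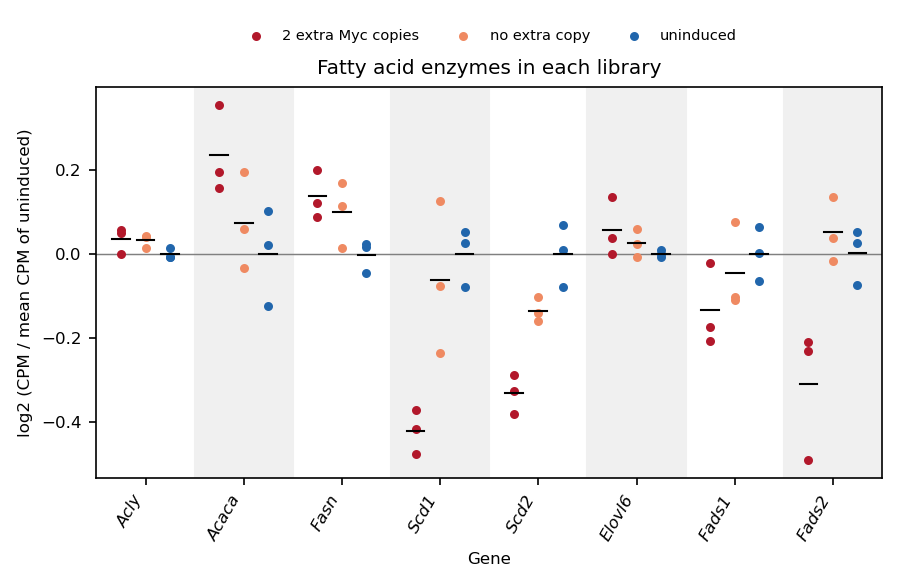
Level of the 8 fatty acid enzymes in each of the 9 libraries, as log2 of CPM over the mean CPM of the uninduced libraries (y axis). Points are libraries and black bars the mean of the 3 log2 values. Scd1, Scd2 and Fads2 are lowest with 2 extra copies, while Acaca and Fasn are above the uninduced libraries there.

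**Figure D4:**
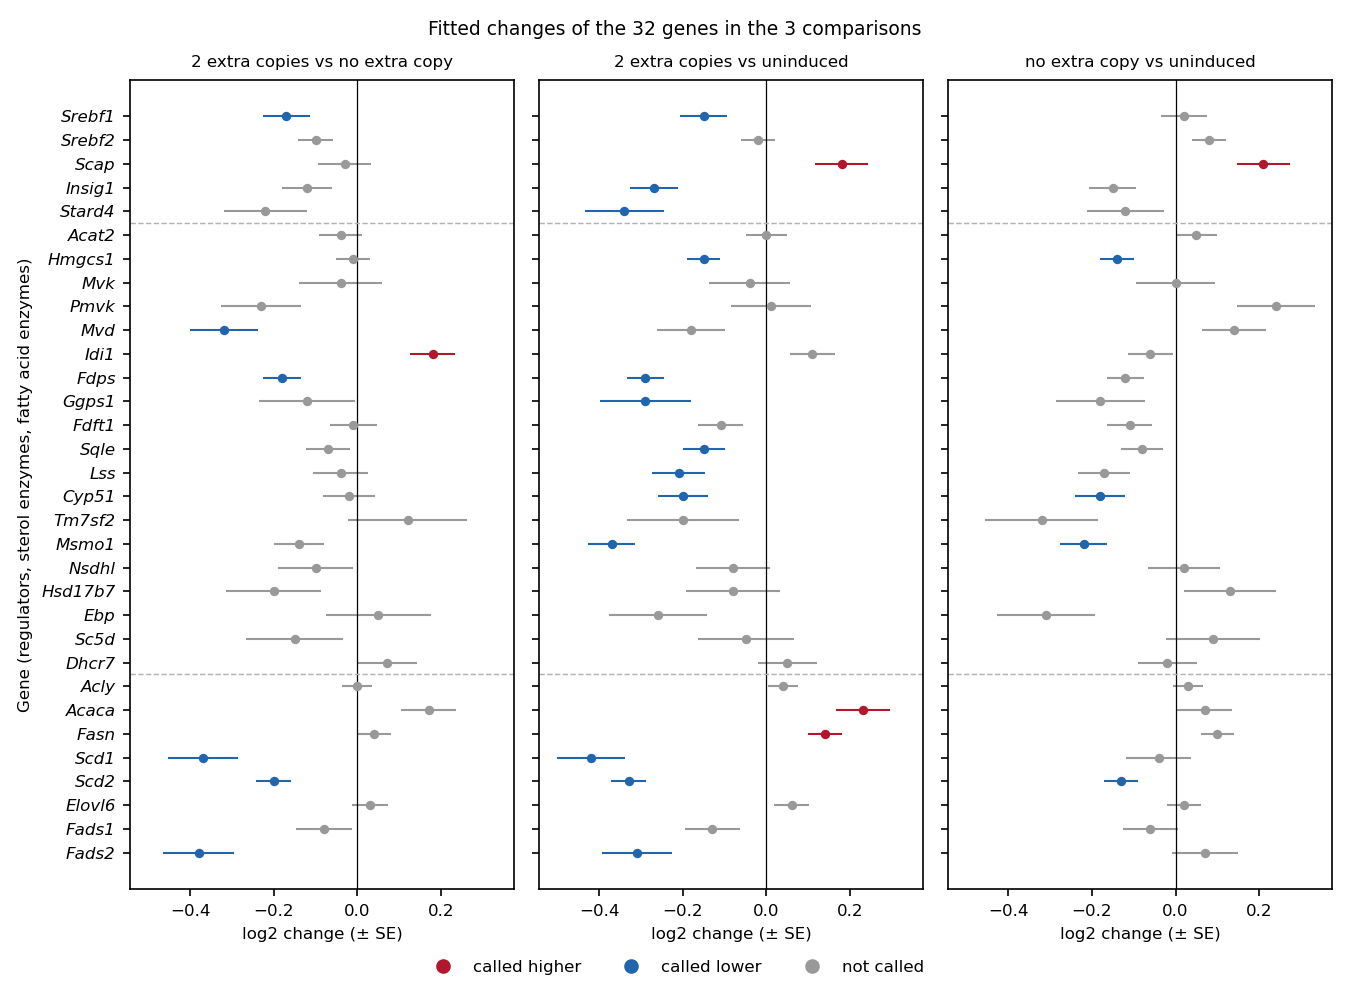
Fitted log2 change with its standard error (x axis) of the 32 genes (y axis) in the 3 comparisons, with dashed lines between regulators with Stard4, sterol enzymes and fatty acid enzymes. Called genes are red when higher and blue when lower in the group named ahead of the other. The middle panel holds 13 lower and 3 higher calls, and the largest change is that of Scd1, log2 -0.42.

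The 2-sided exact permutation test on the CPM of single genes cannot go below p = 0.1 with 3 libraries against 3. It gave 0.1 for each of the 28 calls of a member in a comparison, since in all of them the groups did not overlap. The calls were made on the same libraries, so this gives them no separate support. Some changes that were not called also gave 0.1 without overlap, among them Pmvk and Tm7sf2 with no extra copy against uninduced cells.

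Promoter sequence was examined for letters that these genes share. RefSeq windows from 250 bases before to 50 bases after the gene start, on GRCm38.p6, were held for 25 of the 32 genes. On either strand, the letters CCAAT, bound by the factor NF-Y, occurred in the windows of 15 of 16 sterol enzymes and 2 of 5 fatty acid enzymes. Of all 32851 windows 37.4% held them, and 38.3% of the windows of tested genes. The GC box GGGCGG occurred for 14 of 16 sterol enzymes and 2 of 5 fatty acid enzymes, beside 35.7% of all windows and 63.0% of those of tested genes. The E-box CACGTG, which Myc can bind, occurred for Scap, Insig1, Hsd17b7, Sc5d and Dhcr7, or 5 of 25 genes, beside 10.1% of windows of tested genes. The SREBP element searched, TCACNCCAC, was present for Hmgcs1 alone, beside 1.19% of windows of tested genes. Members are counted by gene, some with several windows, while the shares are by window. Of the 31 windows of members, 21 held CCAAT, 23 the GC box, 6 the E-box and 1 the SREBP element. The 2 windows of Scap overlap, and their E-box is the same site counted in both. In the 31 windows 0 matches of different motifs overlapped. A match is only a run of letters, and its absence says only that these letters are not in the window. The windows of 4 genes are printed as examples, 5′ to 3′ on the strand of the gene: Hmgcs1, Msmo1, the regulator Insig1, and Fasn. Whether these letters have a part in the changes of the genes was not tested. Capitals mark the SREBP element in Hmgcs1 and CCAAT or its reverse complement in all 4.
Hmgcs1 (chr13:119690101-119690400, plus strand): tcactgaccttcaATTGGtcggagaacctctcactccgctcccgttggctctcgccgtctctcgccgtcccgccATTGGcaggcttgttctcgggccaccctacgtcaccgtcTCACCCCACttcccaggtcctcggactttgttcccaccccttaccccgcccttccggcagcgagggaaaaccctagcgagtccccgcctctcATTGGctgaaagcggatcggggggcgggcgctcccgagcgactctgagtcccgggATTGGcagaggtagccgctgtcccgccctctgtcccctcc
Msmo1 (chr8:64733529-64733828, minus strand): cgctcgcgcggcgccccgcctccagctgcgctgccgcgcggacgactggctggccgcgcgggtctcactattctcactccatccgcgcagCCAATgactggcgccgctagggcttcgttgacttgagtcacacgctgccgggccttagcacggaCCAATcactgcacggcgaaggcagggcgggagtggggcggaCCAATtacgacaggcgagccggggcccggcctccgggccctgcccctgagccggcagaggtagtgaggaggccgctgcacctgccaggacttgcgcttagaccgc
Insig1 (chr5:28071162-28071461, plus strand): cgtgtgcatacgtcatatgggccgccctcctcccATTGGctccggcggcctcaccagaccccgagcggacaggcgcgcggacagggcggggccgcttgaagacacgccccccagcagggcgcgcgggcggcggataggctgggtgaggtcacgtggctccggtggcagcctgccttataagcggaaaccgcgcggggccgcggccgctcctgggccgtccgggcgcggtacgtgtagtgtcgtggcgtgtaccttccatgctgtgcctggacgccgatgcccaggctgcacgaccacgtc
Fasn (chr11:120824498-120824797, minus strand): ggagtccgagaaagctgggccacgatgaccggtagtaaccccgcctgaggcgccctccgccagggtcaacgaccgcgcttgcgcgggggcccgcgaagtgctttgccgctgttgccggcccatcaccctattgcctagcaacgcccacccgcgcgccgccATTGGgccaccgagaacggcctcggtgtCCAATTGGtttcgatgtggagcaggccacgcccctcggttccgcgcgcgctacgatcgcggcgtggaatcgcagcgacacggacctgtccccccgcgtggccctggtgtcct
Hmgcs1 held 4 CCAAT boxes, Msmo1 3, Insig1 1 and Fasn 3. In Hmgcs1 the SREBP element begins 137 bases before the gene start.

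**Figure D5:**
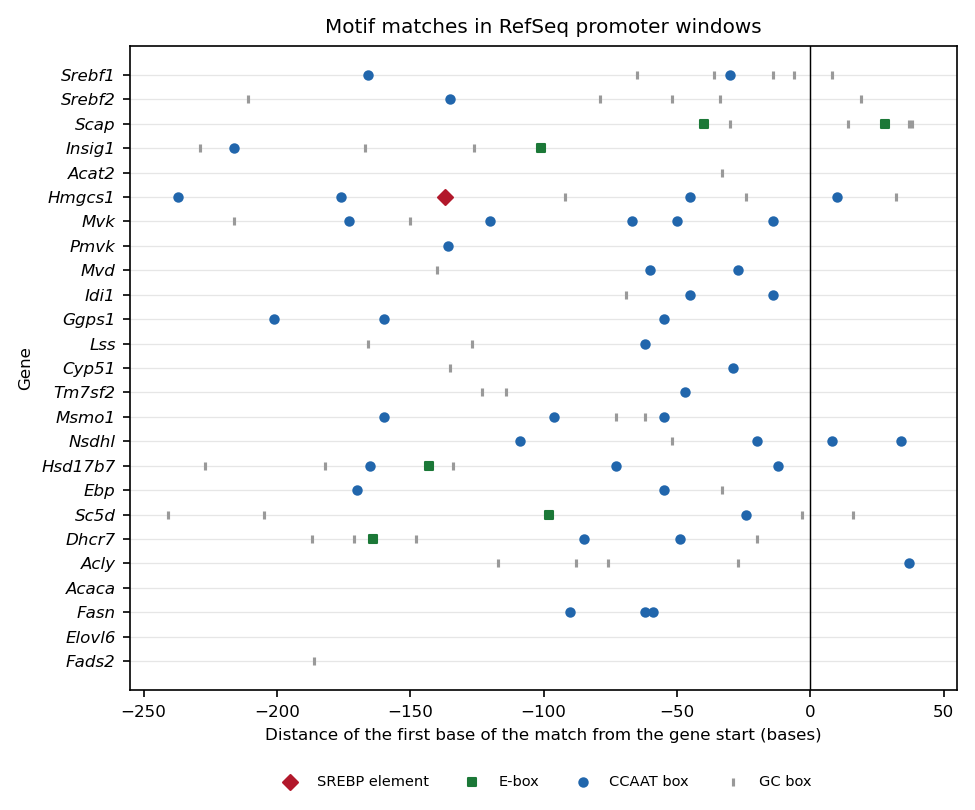
Matches of the 4 motifs in the promoter windows of the 25 genes with a window (y axis), by distance of the first base of the match from the annotated gene start (x axis, bases). Genes with several windows have all of their matches on 1 line. Of the 35 CCAAT matches of sterol enzymes, 21 begin within 100 bases before the start.

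Other genes of lipid metabolism were described from lists chosen with earlier results of these data known. Of 18 other SREBP pathway and sterol genes, 2 fell and 1 rose with 2 extra copies against uninduced cells (11.1% and 5.56%, beside 12.1% and 12.8% of all genes), with a median log2 change of -0.01. Tmem97, a sterol-responsive membrane protein, rose 1.21-fold against uninduced cells (73.9 against 61 CPM, adjusted p = 0.00188) and 1.20-fold against no extra copy (73.9 against 61.5 CPM, adjusted p = 0.00531).

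Of 23 other fatty acid synthesis genes, 7 rose and 1 fell with 2 extra copies against uninduced cells (30.4% and 4.35%, beside 12.8% and 12.1% of all genes), with a median log2 change of 0.12. DESeq2 called 2 higher and 0 lower, with 7 higher and 1 lower at its unadjusted p below 0.05. Mlxipl, the carbohydrate-responsive factor ChREBP, rose most, 1.69-fold against uninduced cells (19.6 against 11.5 CPM, log2 0.75, SE 0.121, adjusted p = 1.71e-05) and 1.59-fold against no extra copy (19.6 against 12.3 CPM, adjusted p = 0.000216). Slc25a1, the citrate carrier that feeds Acly, rose 1.15-fold (106 against 91.6 CPM, adjusted p = 0.00211), and Mecr, of mitochondrial fatty acid synthesis, 1.29-fold (26.2 against 20.2 CPM, adjusted p = 0.00652). Mid1ip1, an activator of acetyl-CoA carboxylase, fell 1.17-fold (43.5 against 50.7 CPM, adjusted p = 0.0189). Against uninduced cells, 3 of the 23 rose with no extra copy, the elongase Elovl1 (log2 0.43), the dehydratase Hacd2 (log2 0.24) and the reductase Hsd17b12 (log2 0.20), and the elongase Elovl5 fell (log2 -0.18), or 13.0% higher and 4.35% lower beside 7.10% and 6.39% of all genes. DESeq2 called 0 of the 23 there, with 3 higher and 1 lower at its unadjusted p below 0.05.

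Of 12 sterol export, storage and LXR genes, 3 fell with 2 extra copies against no extra copy (25.0%, beside 7.70% of all genes): Apoe, the apolipoprotein, 1.17-fold (688 against 809 CPM, adjusted p = 8.63e-06), Npc2, a lysosomal sterol carrier, 1.16-fold (125 against 145 CPM, adjusted p = 0.00248), and its partner Npc1 1.23-fold (37.7 against 46.1 CPM, adjusted p = 0.00607). Against uninduced cells 3 fell with 2 extra copies, Npc1 (log2 -0.38), Lpcat3 (log2 -0.21) and Mylip (log2 -0.68), Apoe rose (log2 0.15; 25.0% lower and 8.33% higher, beside 12.1% and 12.8% of all genes), and 2 rose with no extra copy, Apoe 1.31-fold (809 against 620 CPM, adjusted p = 2.81e-10) and Npc2 1.22-fold (145 against 119 CPM, adjusted p = 9.34e-05), or 16.7% beside 7.10% of all genes. DESeq2 called 2 lower between the induced populations, 1 lower and 1 higher with 2 extra copies against uninduced cells and 2 higher with no extra copy.

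Of 14 genes that use isoprenoids, 2 rose with 2 extra copies against uninduced cells, Rabggtb, a Rab prenyltransferase subunit (150 against 130 CPM, log2 0.21, adjusted p = 0.000554), and Pdss1, of ubiquinone side chain synthesis (log2 0.32), and Pggt1b, a geranylgeranyl transferase subunit, fell (log2 -0.32). These are 14.3% and 7.14% of the list, near the 12.8% and 12.1% of all genes. Against no extra copy Rabggtb, Pdss1 and Rabggta rose (log2 0.27, 0.38 and 0.19) and the methyltransferase Icmt fell (log2 -0.21). These are 21.4% and 7.14% of the list, beside 8.30% and 7.70% of all genes. Rabggta and Coq2 fell in cells without an extra copy against uninduced cells (log2 -0.31 and -0.30), or 14.3% beside 6.39% of all genes. DESeq2 called 1 higher and 0 lower against either uninduced cells or no extra copy, with 1 lower in each at its unadjusted p below 0.05, and 1 of the falls without an extra copy.

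Of 13 fatty acid oxidation genes tested, 2 rose with 2 extra copies against uninduced cells: Slc25a20, the carnitine carrier, 1.35-fold (73.5 against 54.6 CPM, adjusted p = 4.38e-06), and Acads, a short-chain dehydrogenase (log2 0.21). This is 15.4% of the list, near the 12.8% of all genes. Against no extra copy Slc25a20 and Hadh rose (log2 0.20 and 0.14), and the falls included that of Acadl, a long-chain dehydrogenase (log2 -0.35). In that comparison 15.4% of the list were higher and 15.4% lower, beside 8.30% and 7.70% of all genes. In cells without an extra copy 4 rose against uninduced cells, among them Slc25a20 and Acadvl (log2 0.23 and 0.30), and Hadh fell (log2 -0.22), or 30.8% and 7.69% beside 7.10% and 6.39% of all genes. DESeq2 called 1 higher with 2 extra copies against uninduced cells, 0 higher and 1 lower between the induced populations and 0 higher and 1 lower without an extra copy, with 2 and 4 higher in the last pair of comparisons at its unadjusted p below 0.05.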

How the data were processed

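The authors deposited 1 table of expected counts, which RSEM 1.17 produced per the submitters' processing notes; per the file headers the genome was GRCm38 with annotation release 84. Cutadapt, Picard and limma are named there without a role, and aligner and strand handling are not stated. Reads were single-end, 75 bp.

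Counts were rounded and filtered with filterByExpr, leaving 13424 genes with 99.8% of all counts. GENCODE M21 (GRCm38) gave symbols, exons and transcript lengths, with a symbol for 35432 of 35771 rows. All 9 libraries entered 1 fit in edgeR 4.0.16 (R 4.3.3; TMM, robust quasi-likelihood F-test, 1 coefficient per group), with Benjamini-Hochberg adjustment over all genes tested at 0.05; adjusted p-values come from it where no other tool is given. The SE of a log2 change was its size over the root of F. The fit was tested on simulated counts. Alternatives were DESeq2 1.42.0, limma-voom (limma 3.58.1), other scaling, filters and fits, a replicate block, a length offset and leaving out each library. Values in every library are given for regulators, Stard4, fatty acid enzymes and the 8 called sterol enzymes with the smallest p; of other lists up to 3 called genes per direction and comparison with the smallest p are named, apart from some results that are not reported here. Close copies matched with minimap2 at 95% identity or more along 50% or more of a transcript. Members and lists were chosen with earlier results of these data known.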

Additional observations from a re-analysis of the deposited data

How the results depend on the processing

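Of the 96 changes of a member in a comparison, 28 were called, and 8 of these held under all 20 alternatives; no called change turned its direction. The first comparison here is 2 extra copies with none, the second 2 extra copies with uninduced and the last no extra copy with uninduced. DESeq2 called 1075, 1889 and 806 genes in these, against 2148, 3350 and 1811; 0, 2 and 0 sterol enzymes, against 3, 7 and 3; and 0 fatty acid enzymes in the last, against 1 (1 higher and 1 lower at its unadjusted p below 0.05). With the length trend removed, alone or with the replicate block, 5 fatty acid enzymes were called in the first comparison against 3, 4 sterol enzymes in the second against 7, and 5 sterol and 2 fatty acid enzymes in the last. In that last comparison upper-quartile factors and a fit of the 2 groups alone each gave 5 sterol enzymes, and library size alone 2 fatty acid enzymes. The cause of these moves was not tested.

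Leaving out 1 library gave 1397 to 2564, 2453 to 3719 and 1177 to 2201 genes called; 2 to 3, 3 to 7 and 1 to 5 sterol enzymes; and 3 to 4, 3 to 6 and 0 to 2 fatty acid enzymes. Without no extra copy replicate 2, the deepest library, the counts of genes were 1397 and 1177 in the first and last comparison. Deviations of same-numbered libraries of different groups correlated weakly or not at all (r from -0.102 to 0.211). Between uninduced cells and 2 extra copies, r was 0.211, 0.0749 and 0.0738 for same-numbered libraries and -0.137 to 0.0664 for the others. Such weak values cannot settle whether the numbers mark a shared culture or day. The replicate block gave 2233, 3440 and 1933 genes, 3, 7 and 4 sterol enzymes and 3, 5 and 1 fatty acid enzymes. Lss, log2 -0.18 with no extra copy against uninduced, was the member gained with it (adjusted p = 0.0476).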
